A study of Mus musculus with 2 samples.

Results

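The insulin-like growth factor (IGF) axis was described in embryonic mouse hindbrain through 10 genes chosen by name. They were the ligand genes Igf2 and Igf1, the receptor genes Insr, Igf1r and Igf2r, and the binding protein genes Igfbp2, Igfbp4, Igfbp7, Igfbp5 and Igfbp3. All 10 matched an identifier by symbol, and they are 10 of 43346 Ensembl genes in the deposited tables, of which 21474 are annotated as protein coding. The tissue was hindbrain, the part of the brain that forms the medulla, pons and cerebellum, from healthy B6NCrl mouse embryos at day 16.5 of development, with no treatment or engineered allele in the labels. RNA over 200 bases from 2 biological replicates was sequenced, 10 ng per library, and each replicate was a pool of male and female embryos. Replicate 2 came from 37 embryos, and the labels used here leave out the number behind replicate 1. Both replicates belong to a single group, so genes were compared with each other within a library and the 2 pools were compared with each other. Permuting 2 libraries cannot give a p under 0.5, and none is reported.

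Igf1 and Igf2 are secreted peptides related to insulin. Both act through the tyrosine kinase receptor made from Igf1r, and Igf2 also acts through one form of the insulin receptor, made from Insr. The product of Igf2r, also known as the cation-independent mannose 6-phosphate receptor, takes Igf2 to the lysosome and does not signal as a kinase. Binding proteins hold the ligands outside cells, where they can extend the ligands' lifetime or keep them from the receptors. In the embryo the axis drives growth, and in the brain Igf2 is known from the choroid plexus, meninges and vessels, and Igf1 as a factor for neurons and glia.

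The libraries held 42017008 expected counts in replicate 2 and 42467811 in replicate 1, with 1195 to 12144 counts per IGF axis gene in replicate 2 and 1172 to 11800 in replicate 1. All 10 transcription factor genes listed as markers of hindbrain position were at 1 TPM or more in both pools, and summed to 357 TPM in replicate 2 and 333 TPM in replicate 1. Only 1 of 10 forebrain markers was, Neurod6, and that list summed to 28.7 TPM in replicate 2 and 54.0 TPM in replicate 1. Neurod6 alone gave 27.96 TPM in replicate 2 and 33.42 TPM in replicate 1. Each other forebrain marker had 0.38 TPM or less in replicate 2 and 0.80 to 7.94 TPM in replicate 1, and 2 of them were at 0 in replicate 2. Muscle and cartilage markers also stood far apart between pools, and summed to 61.1 TPM in replicate 2 and 365 TPM in replicate 1. Of these sums, Sox9 alone gave 38.61 TPM in replicate 2 and 44.67 TPM in replicate 1. In bulk tissue, fewer cells of a type and less RNA per cell cannot be told apart.

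The members were expressed at levels that ranged from 7.10 to 391 TPM on average, and the binding proteins held most of the total. TPM is a transcript abundance per unit of length, scaled to a fixed total in each library, so levels of different genes can be set beside each other. All 10 genes reached 1 TPM in both pools, as did 63.5% of protein-coding genes. Igfbp2 and Igf2 were the 2 members at 100 TPM or more in both pools, a level reached by 7.76% of protein-coding genes. Summed over members, binding proteins gave 623 TPM in replicate 2 and 667 TPM in replicate 1. The 2 ligands summed to 143 TPM in replicate 2 and 157 TPM in replicate 1, and the 3 receptors to 60.1 TPM in replicate 2 and 65.8 TPM in replicate 1. The share of binding proteins in the members' total was 75.4% in replicate 2 and 75.0% in replicate 1.

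**Figure D1:**
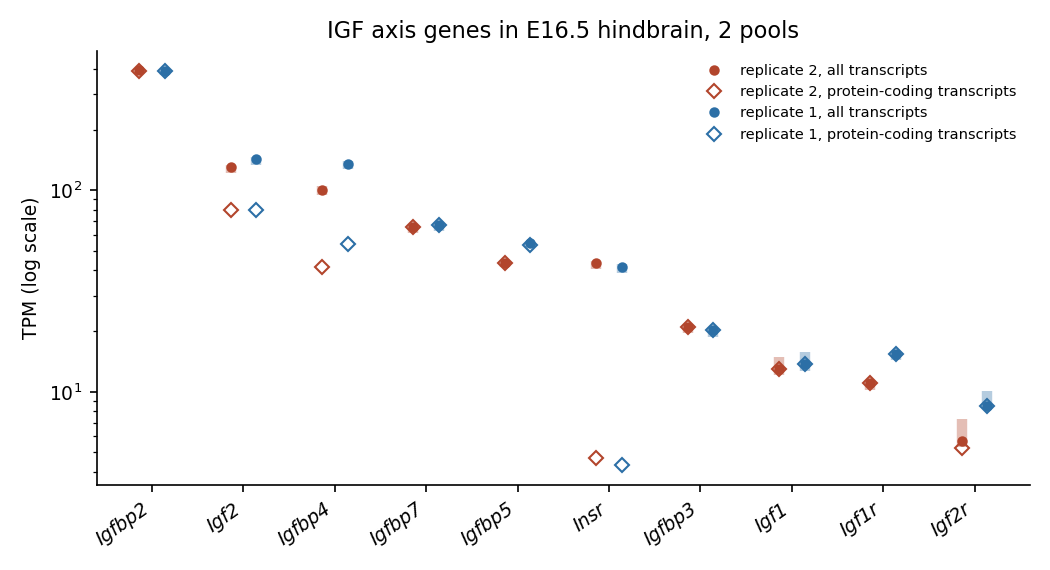
Level of each IGF axis gene in TPM (log axis), with replicate 2 left of replicate 1 for each gene. Filled points are all transcripts, pale bars the deposited interval on that value, and open diamonds the sum of protein-coding transcripts alone. Igfbp2 lies highest at 391 TPM on average, and the open diamonds fall well below the filled points for Igf2, Igfbp4 and Insr.

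Igf2 was the more abundant ligand gene. Igf2 (ENSMUSG00000048583.12, chr7:142650766-142666816, minus strand), an imprinted gene known to be expressed from the paternal allele in most tissues, had 129.7 TPM in replicate 2 and 143.1 TPM in replicate 1. Its mean was 136 ± 9.45 TPM (SD, n = 2). Gene positions are from GENCODE M21 on GRCm38. Igf1 (ENSMUSG00000020053.14, chr10:87858265-87937042, plus strand), the ligand that growth hormone induces in liver, had 12.93 TPM in replicate 2 and 13.78 TPM in replicate 1, and averaged 13.4 ± 0.601 TPM (SD, n = 2). The 2 genes lay far apart in each pool, and the log2 ratio of Igf2 over Igf1 was 3.33 in replicate 2 and 3.38 in replicate 1. On protein-coding transcripts alone that ratio was 2.62 in replicate 2 and 2.54 in replicate 1.

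Igf2 RNA was assigned to transcripts with different starts. Mouse Igf2 is known to have several promoters, and the bases upstream of the most upstream and most downstream RefSeq starts are shown because the transcripts from these starts together held over 50% of the gene's TPM in both pools. Each window is the 250 bases before the start, from RefSeq on GRCm38.p6, minus strand, and capitals mark GGGCGG, the core of a binding site for Sp1 family factors. The first window is chr7:142666817-142667066 and the second is chr7:142657497-142657746.
Igf2 most upstream start: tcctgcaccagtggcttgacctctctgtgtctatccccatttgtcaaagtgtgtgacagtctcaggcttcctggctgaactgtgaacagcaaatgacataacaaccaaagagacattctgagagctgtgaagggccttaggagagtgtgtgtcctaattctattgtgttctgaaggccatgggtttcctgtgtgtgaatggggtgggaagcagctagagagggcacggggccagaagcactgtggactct
Igf2 most downstream start: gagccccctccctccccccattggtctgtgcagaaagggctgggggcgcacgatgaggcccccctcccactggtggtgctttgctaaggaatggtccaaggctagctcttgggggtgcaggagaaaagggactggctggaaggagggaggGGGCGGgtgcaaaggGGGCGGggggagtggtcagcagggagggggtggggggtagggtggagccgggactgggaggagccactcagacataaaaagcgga
The upstream window held 1 CpG and no GGGCGG, and the downstream window held 6 CpG and GGGCGG in 2 places. The upstream start is that of Igf2-203, which had 49.95 TPM in replicate 2 and 51.68 TPM in replicate 1. The downstream start is that of Igf2-201, with Igf2-202 beginning a short way inside it, and Igf2-202 had 22.33 TPM in replicate 2 and 19.43 TPM in replicate 1. Igf2-203 thus took 38.5% of Igf2 TPM in replicate 2 and 36.1% in replicate 1, and the downstream pair took 17.99% in replicate 2 and 14.7% in replicate 1.

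The order of these 2 starts depended on the unit. Counted in reads, the downstream pair held 36.8% of the gene in replicate 2 and 31.2% in replicate 1, against 17.7% in replicate 2 and 16.9% in replicate 1 for Igf2-203. These are the expected counts, which do not correct for transcript length. Igf2-203 is annotated with 650 bases, of which 41 are in no other Igf2 transcript, and Igf2-202 with 2503 bases, all of them shared with another Igf2 transcript. Another large share belonged to Igf2-208, a processed transcript of 958 bases not annotated as coding, whose bases all lie within exons of Igf2-201 or Igf2-205. Igf2-208 had 48.89 TPM in replicate 2 and 60.54 TPM in replicate 1, or 37.7% of the gene in replicate 2 and 42.3% in replicate 1. Its deposited intervals did not overlap between pools, at 44.1 to 51.8 TPM in replicate 2 and 55.02 to 63.1 TPM in replicate 1. Shares of transcripts that share most of their bases rest on the authors' model, and read positions were not used here.

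Igf1 RNA was mostly of the form that skips a 52-base exon. That exon (chr10:87915298-87915349) changes the carboxyl-terminal E peptide of the Igf1 precursor, which is cut from the mature ligand, and it shifts the reading frame of the exon after it. Its sequence is shown with 15 bases of the exons before and after it, from GENCODE M21 transcripts on GRCm38, plus strand, with the alternative exon in capitals, beside the same place in the form that skips it.
Igf1 with the exon: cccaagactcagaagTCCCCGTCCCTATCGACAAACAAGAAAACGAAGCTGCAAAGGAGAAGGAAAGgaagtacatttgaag
Igf1 without the exon: cccaagactcagaaggaagtacatttgaag
Transcripts without the exon took 81.1% of Igf1 TPM in replicate 2 and 74.4% in replicate 1, and those with it took 14.8% in replicate 2 and 22.0% in replicate 1. The rest, 4.10% in replicate 2 and 3.55% in replicate 1, belonged to Igf1-201, whose last exon begins at the same base and runs on past the 52 bases. Only 52.62 expected counts in replicate 2 and 84.31 in replicate 1 were assigned to transcripts with it, or 2.93% and 4.76% of the gene's counts in replicates 2 and 1. The interval of Igf1-203, the most abundant such transcript, ran to 1.87 TPM in replicate 2 and 2.70 TPM in replicate 1, and reached down to 0.0152 TPM in replicate 2 and 0.220 TPM in replicate 1, so the pools were not separated. The main transcript was Igf1-202, of 7052 bases, at 9.37 TPM in each pool. Its share was 72.5% in replicate 2 and 68.0% in replicate 1. The first exon that Igf1-202 shares with Igf1-203 accounted for 80.1% of TPM in replicate 2 and 79.8% in replicate 1.

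Among the receptor genes, Insr had the highest gene-level value but the lowest protein-coding one. Insr (ENSMUSG00000005534.9, chr8:3122061-3279617, minus strand) had 43.37 TPM in replicate 2 and 41.80 TPM in replicate 1, a mean of 42.6 ± 1.11 TPM (SD, n = 2). Igf1r (ENSMUSG00000005533.9, chr7:67952827-68233668, plus strand) had 11.02 TPM in replicate 2 and 15.48 TPM in replicate 1, a mean of 13.2 ± 3.15 TPM. Igf2r (ENSMUSG00000023830.9, chr17:12682406-12769664, minus strand), an imprinted gene known to be expressed from the maternal allele in most mouse tissues, had 5.67 TPM in replicate 2 and 8.52 TPM in replicate 1, a mean of 7.10 ± 2.02 TPM. Insr values were close in the 2 pools, while Igf1r and Igf2r were lower in replicate 2 in TPM, with deposited intervals apart, and relative to spike-in RNA Igf2r alone was lower.

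Most of the Insr value came from Insr-202, a transcript of 3 exons annotated as a retained intron. Insr-202 had 38.69 TPM in replicate 2 and 37.47 TPM in replicate 1, and the coding transcript Insr-201, with 21 exons, had 4.68 TPM in replicate 2 and 4.32 TPM in replicate 1. Transcripts not annotated as coding therefore held 89.2% of Insr TPM in replicate 2 and 89.7% in replicate 1. Counted in reads the split was more even, with 1568 expected counts for Insr-202 and 1115 for Insr-201 in replicate 2, and 1482 for Insr-202 and 1005 for Insr-201 in replicate 1. Insr-202 is 1675 bases long and Insr-201 is 9355. They share 1397 bases, or 83.4% of Insr-202, and only 278 bases at chr8:3211101-3211378 belong to Insr-202 alone. The boundary where the 2 transcripts part is shown, as 100 bases from GENCODE M21 transcript Insr-202, chr8:3211319-3211418 on GRCm38, minus strand. Capitals mark the last 40 bases of exon 3 of Insr-201, and the lower-case part is intron in Insr-201 and exon in Insr-202.
Insr exon end and retained intron: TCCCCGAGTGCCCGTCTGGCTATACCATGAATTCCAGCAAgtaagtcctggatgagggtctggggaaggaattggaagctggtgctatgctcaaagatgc
The intron begins with gt, the usual start of an intron. Coverage across the boundary was not used here.

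**Figure D2:**
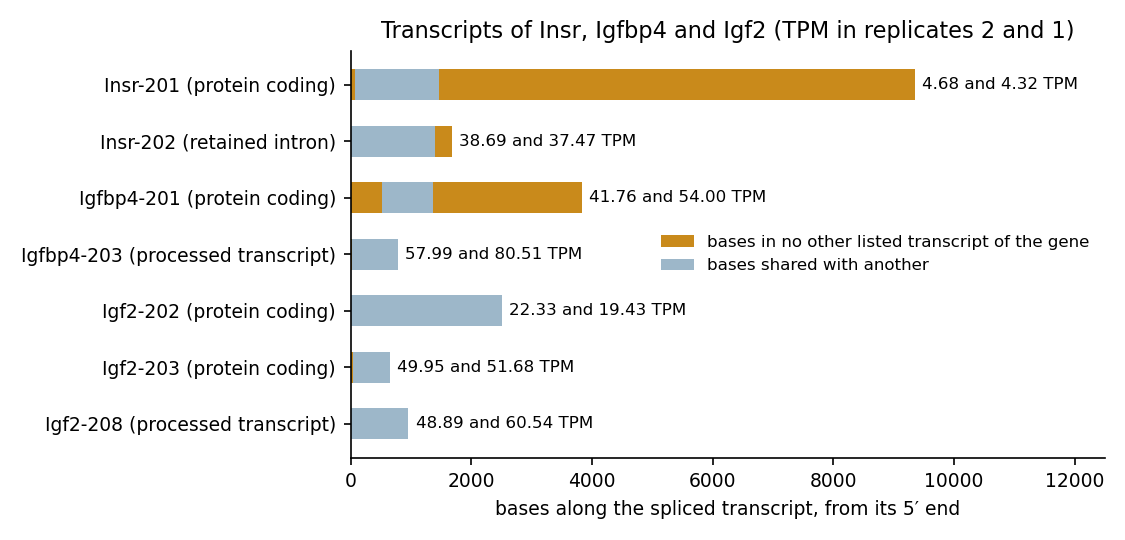
Transcripts of Insr, Igfbp4 and Igf2 drawn to scale along their spliced length in bases, with TPM in replicate 2 and then replicate 1 at the right. Orange marks bases in no other listed transcript of the gene and blue marks shared bases. Insr-202 carries 38.69 and 37.47 TPM on 1675 bases, most of them shared with Insr-201, and Igf2-202 and Igf2-208 have no bases of their own.

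The order of the receptors turned round with the transcripts counted. Over all transcripts, Insr was 3.26-fold above Igf1r, with a log2 ratio of 1.98 in replicate 2 and 1.43 in replicate 1. Over protein-coding transcripts it was lower, with a log2 ratio of Insr over Igf1r of -1.24 in replicate 2 and -1.84 in replicate 1. Insr over Igf2r was 2.94 in replicate 2 and 2.29 in replicate 1 over all transcripts, and -0.17 in replicate 2 and -0.98 in replicate 1 over coding ones, where the intervals of the 2 genes were not apart in both pools. Igf1r stood above Igf2r either way, by a log2 ratio of 0.96 in replicate 2 and 0.86 in replicate 1 over all transcripts, and of 1.06 in replicate 2 and 0.86 in replicate 1 over coding ones. Coding transcripts of the 3 receptors summed to 20.97 TPM in replicate 2 and 28.3 TPM in replicate 1.

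The annotation behind the receptor values held fewer transcripts than a later release. Igf1r was quantified as a single transcript of 4489 bases, which GENCODE M21 lists with 11409 bases, and M21 lists 6 Igf1r transcripts. The Igf1r TPM and its ratios to other genes rest on the shorter model, and the effect of that model on them was not tested. Insr was quantified as 2 of the 5 transcripts in M21. Insulin receptor RNA is known in a form without exon 11, whose receptor binds Igf2 strongly, and a form with it. In M21 the only Insr transcript with a 36-base exon is Insr-203, at chr8:3181702-3181737 between exons 10 and 11 of Insr-201. Neither quantified transcript holds that exon, so the balance of the 2 forms was not analysed here.

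Igfbp2 was the highest of the members and of the binding proteins. Igfbp2 (ENSMUSG00000039323.14, chr1:72824503-72852474, plus strand), a binding protein known from developing brain and from choroid plexus, had 393 TPM in replicate 2 and 390 TPM in replicate 1, a mean of 391 ± 1.77 TPM (SD, n = 2). It ranked 308 of 21474 protein-coding genes by mean TPM. Its deposited TPM lay slightly above its own deposited interval in both pools, at 377 to 391 TPM in replicate 2 and 375 to 389 TPM in replicate 1. Igfbp5, which binds extracellular matrix as well as IGFs, is its neighbour on chromosome 1, with a gap of 5.46 kb between the 2 genes. Igfbp5 (ENSMUSG00000026185.8, chr1:72857932-72874884, minus strand) had 43.49 TPM in replicate 2 and 54.64 TPM in replicate 1, a mean of 49.1 ± 7.88 TPM. The neighbours differed 8.03-fold, with a log2 ratio of Igfbp2 over Igfbp5 of 3.17 in replicate 2 and 2.84 in replicate 1.

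Igfbp4 had the largest SD in TPM of the 10 genes. Igfbp4 (ENSMUSG00000017493.8, chr11:99041244-99054392, plus strand), a binding protein known mainly as an inhibitor of IGF action and as a substrate of the protease Pappa, had 99.75 TPM in replicate 2 and 134.5 TPM in replicate 1. Its mean was 117 ± 24.6 TPM (SD, n = 2). The processed transcript Igfbp4-203, of 785 bases with 28 of its own, had 57.99 TPM in replicate 2 and 80.51 TPM in replicate 1. The coding transcript Igfbp4-201, of 3831 bases, had 41.76 TPM in replicate 2 and 54.00 TPM in replicate 1. Transcripts not annotated as coding held 58.1% of Igfbp4 TPM in replicate 2 and 59.9% in replicate 1, but 20.3% of its counts in replicate 2 and 21.5% in replicate 1. Both transcripts were lower in replicate 2, and the split between them was close in the 2 pools.

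Igfbp7 and Igfbp3 had overlapping intervals in the 2 pools. Igfbp7 (ENSMUSG00000036256.9, chr5:77349240-77408041, minus strand), a low-affinity relative of the binding proteins known from vessels, had 65.76 TPM in replicate 2 and 67.39 TPM in replicate 1, a mean of 66.6 ± 1.15 TPM (SD, n = 2). Igfbp3 (ENSMUSG00000020427.7, chr11:7206086-7213923, minus strand), the main carrier of IGFs in serum, had 21.04 TPM in replicate 2 and 20.30 TPM in replicate 1, a mean of 20.7 ± 0.523 TPM. All listed transcripts of Igfbp7 and of Igfbp3 are annotated as coding. Igfbp1, a liver binding protein gene 3.54 kb from Igfbp3, was near 0, with 0.08 TPM in replicate 2 and 0.17 TPM in replicate 1.

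Transcripts not annotated as protein coding held over 50% of TPM in both pools for 2 members, Insr and Igfbp4, where 7.36% of detected protein-coding genes were in that state. For Insr the share was over 80%, as it was for 1.91% of those genes. The median share was 0.605% over the 10 members and 1.64% over the 13630 detected protein-coding genes. In 6 members it was under 5% in both pools, and the share of all detected genes in that state was not counted. Igf2r had 7.05% in replicate 2 and 0 in replicate 1, from 2 transcripts with 1.31 and 1.57 expected counts. The transcript with 1.31 counts, at 5.54% of Igf2r TPM in replicate 2, is absent from GENCODE M21. It therefore has no type here, and transcripts without a type were counted as not coding. In shares of reads in place of TPM, Insr was the only member over 50%, with 58.5% in replicate 2 and 59.6% in replicate 1. Shares of reads were not counted over all genes.

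**Figure D3:**
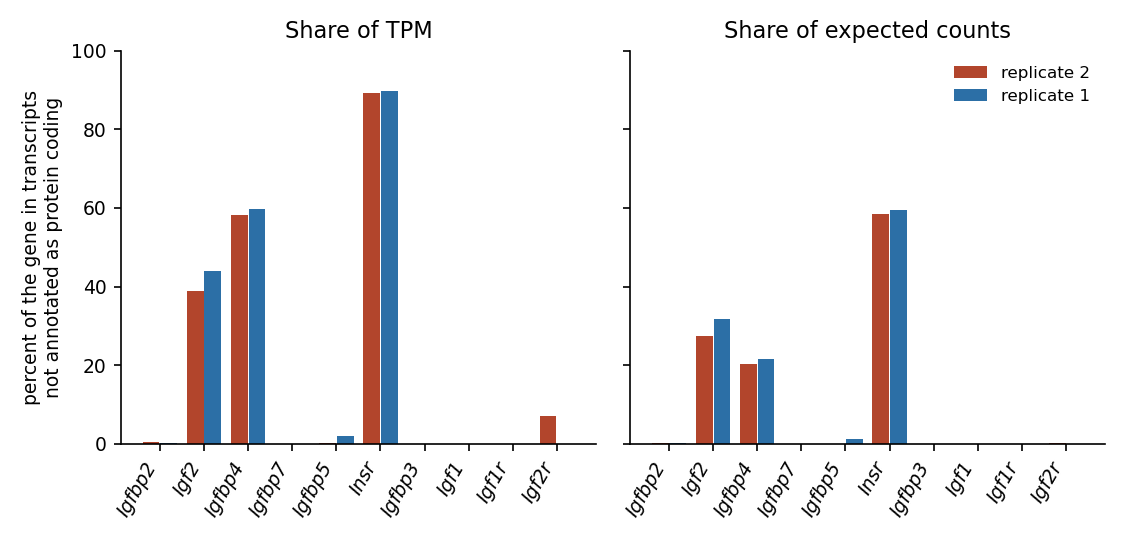
Percent of each gene in transcripts not annotated as protein coding, as a share of TPM at the left and of expected counts at the right, with replicate 2 left of replicate 1 for each gene. Insr reaches 89.2% and 89.7% of TPM, and Igfbp4 has 58.1% and 59.9% of TPM but 20.3% and 21.5% of counts.

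Levels were separated for most pairs of members, as for most pairs of detected protein-coding genes. Ranked by mean TPM over all transcripts, the order was Igfbp2, Igf2, Igfbp4, Igfbp7, Igfbp5, Insr, Igfbp3, Igf1, Igf1r and Igf2r. A pair was called where the 2 genes' intervals stayed apart, in the same direction, in each pool, and 42 of 45 pairs were called, beside 89.2% of all pairs of detected protein-coding genes. The 3 pairs not called were neighbours in the order. Igf2 over Igfbp4 had a log2 ratio of 0.38 in replicate 2 and 0.09 in replicate 1. Igfbp5 over Insr had 0.0040 in replicate 2 and 0.39 in replicate 1, and Igf1 over Igf1r had 0.23 in replicate 2 and -0.17 in replicate 1. For protein-coding transcripts alone, the deposited bounds of a gene's coding transcripts were summed, which can widen its interval. On those sums 40 pairs were called, a count not made over all gene pairs, and 6 mean ratios changed sign. They were Insr over Igfbp3, Igf1, Igf1r and Igf2r, and Igfbp4 over Igfbp7 and Igfbp5. The last was not called, at -0.06 in replicate 2 and 0.01 in replicate 1. Igfbp2 and Igf2 kept the first and second places, with coding means of 391 ± 1.10 TPM and 79.7 ± 0.537 TPM (SD, n = 2), but Igf2 over Igfbp7 was no longer called, with a log2 ratio of 0.27 in replicate 2 and 0.25 in replicate 1.

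Between pools, the 10 genes split evenly in direction but not in size under TMM scaling, a normalization that takes most genes as unchanged. The log2 ratio of counts in replicate 2 over replicate 1 was below 0 for 5 members and above 0 for 5, and it was below 0 for 53.1% of the 13843 protein-coding genes with a mean of 1 TPM. It was lowest for Igf2r, at -0.64 with a 95% counting interval of -0.75 to -0.53, from 1195 counts in replicate 2 and 1880 in replicate 1. Igf1r was at -0.44 (-0.55 to -0.33), Igfbp4 at -0.34 (-0.40 to -0.29), Igfbp5 at -0.27 (-0.32 to -0.23) and Igf2 at -0.06 (-0.13 to -0.0014). Insr was highest at 0.12 (0.04 to 0.20), followed by Igfbp3 at 0.10 (-0.02 to 0.21) and Igfbp2 at 0.06 (0.02 to 0.09). Igf1 was at 0.03 (-0.06 to 0.13) and Igfbp7 at 0.01 (-0.08 to 0.11). The intervals of Igfbp3, Igf1 and Igfbp7 included 0. These intervals cover counting error only.

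By size, 1 of the 10 passed 1.5-fold, Igf2r, which was 1.56-fold higher in replicate 1, and 3.15% of protein-coding genes were lower in replicate 2 past that fold. None of the 10 was higher in replicate 2 past it, beside 1.34% of genes. None passed 2-fold, beside 1.11% of genes that were lower and 0.397% that were higher in replicate 2. The deposited intervals of 5 members, Igf2r, Igf1r, Igfbp4, Igfbp5 and Igf2, were apart with the lower value in replicate 2, beside 22.3% of genes. None was apart with the higher value in replicate 2, beside 9.07% of genes. The central 95% of protein-coding genes lay between -0.65 and 0.45 on the log2 scale, and all 10 members lay inside it. Scaled to the spike-in RNA, every ratio moved up by 0.45, so that Igf2r at -0.19 was the only member lower in replicate 2, and Igf1r was at 0.01, Igfbp4 at 0.11 and Igfbp5 at 0.18.

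**Figure D4:**
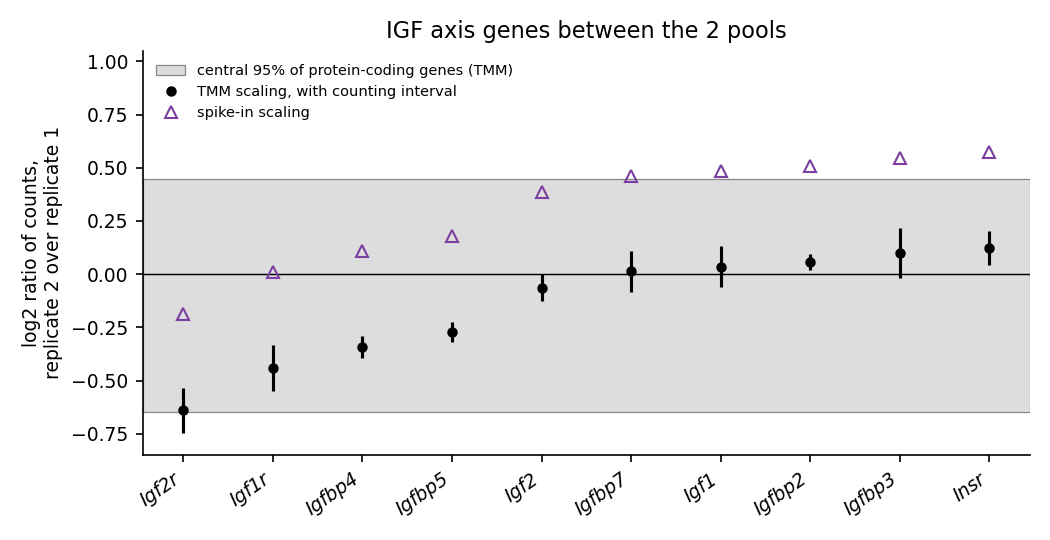
Log2 ratio of counts in replicate 2 over replicate 1 for each member, ordered from lowest to highest. Black points with lines are the TMM-scaled ratio and its 95% counting interval, open triangles the spike-in-scaled ratio, and the grey band the central 95% of protein-coding genes under TMM. Igf2r is lowest at -0.64 under TMM and is the only member below 0, at -0.19, with the spike-in scaling.

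Markers of non-neural cells also differed between pools, in a direction that varied with the cell type. The 10 markers of meninges and fibroblasts summed to 484 TPM in replicate 2 and 837 TPM in replicate 1. Ratios were taken for markers with a mean of 1 TPM or more over the 2 pools. The 8 meningeal and fibroblast markers that passed were all lower in replicate 2, with a median log2 ratio of -0.59. The 8 markers of pericytes and smooth muscle summed to 194 TPM in replicate 2 and 232 TPM in replicate 1. Of these, 6 were lower and 2 higher in replicate 2, with a median of -0.37. The 10 endothelial markers summed to 191 TPM in replicate 2 and 213 TPM in replicate 1. Of the endothelial markers, 8 were lower and 2 higher in replicate 2, with a median of -0.23. Of the muscle and cartilage markers, with the sums above, 8 passed that mean, and all 8 were lower in replicate 2. For Myog, Ckm, Myh3 and Tnnc2, under 1 TPM in replicate 2, this direction was fixed, since they passed only through replicate 1. The 4 detected in both pools, Actc1, Acta1, Col2a1 and Sox9, had ratios of -5.77, -3.76, -1.82 and -0.16. The 7 red blood cell markers summed to 12961 TPM in replicate 2 and 15678 TPM in replicate 1, and all 7 were lower in replicate 2, with a median of -0.29. These medians are under TMM scaling, and the spike-in scaling adds 0.45 to each. Choroid plexus markers summed to 1994 TPM in replicate 2 and 1630 TPM in replicate 1, with a median of 0.13. Most of both sums was Ttr, with 1775 TPM in replicate 2 and 1422 TPM in replicate 1. Microglia and macrophage markers summed to 155 TPM in replicate 2 and 146 TPM in replicate 1, with a median of 0.16. In each of these 2 lists, 7 of 10 markers were higher in replicate 2 and 3 lower. Neuronal markers had a median of 0.07, and astrocyte and radial glia markers 0.17. Of the latter 10, 7 were higher in replicate 2, with Gfap at 1.74 and Aqp4 at 1.19 past 2-fold, and 3 were lower. No marker of these lists was at 0 in either pool. Gene length also moved with the ratio, with a median of 0.12 in the shortest 10% of protein-coding genes and -0.12 in the longest 10%. Igf2r at 8887 bases, Igfbp5 at 5974 and Igf1 at 5218 lie in the longest 10%, which begins at 5122 bases. The part of these markers or of length in the ratios of Igf2r, Igf1r, Igfbp4 and Igfbp5 was not tested.

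Promoter windows of the members held more CpG, in the median, than RefSeq windows at large. RefSeq windows were matched for 9 of the 10 genes, 13 windows in all, and TATAAA and GGGCGG were searched on both strands of the 250 bases upstream of the start. The median window held 14 CpG and 67.2% G and C, beside 6 CpG and 52.4% over all 32851 RefSeq windows of mouse genes. GGGCGG was in 6 of the 13 windows, beside 32.7% of all windows, with matches at Igfbp2, Igf2, Igfbp7, Igf1r and Igf2r. TATAAA was in 1, that of Igfbp4, beside 12.4% of all windows. Windows ranged from 1 CpG at the upstream start of Igf2 to 42 CpG at Igf1r. A match of letters is a description of the window.

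Imprinted and antisense RNAs next to Igf2 and Igf2r were measured as well. H19, a noncoding RNA reciprocally imprinted with Igf2 and 72.6 kb from it, had 41.89 TPM in replicate 2 and 61.44 TPM in replicate 1. Airn, the antisense RNA known to silence the paternal Igf2r allele, overlaps Igf2r by 28.4 kb and had 5.30 TPM in replicate 2 and 5.68 TPM in replicate 1. Igf2os, which overlaps Igf2 by 7.12 kb on the other strand, had 0.06 TPM in replicate 2 and 0.20 TPM in replicate 1. No label or header says if counting used strand, so reads in these overlaps cannot be told apart. The Igf2 mRNA-binding protein genes Igf2bp1, Igf2bp2 and Igf2bp3 were all detected, led by Igf2bp2 at 10.71 TPM in replicate 2 and 16.76 TPM in replicate 1. Of this list of 8 regulators of Igf2 and Igf2r RNA, 7 were detected, and all 7 had log2 ratios below 0 under TMM, beside 53.1% of protein-coding genes. Their median was -0.44 and their range -0.52 to -0.17, which the spike-in scaling moves up by 0.45. None of the 7 passed 1.5-fold under TMM.

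In 8 lists of genes related to the axis, 49 of 57 genes reached 1 TPM in both pools, beside 63.5% of protein-coding genes, and the median over the 57 was 9.62 TPM. Of the 49, 34 had ratios below 0 under TMM, beside 53.1% of protein-coding genes. Past 1.5-fold and lower in replicate 2 was 1 of the 49, beside 3.15% of protein-coding genes, the growth hormone receptor kinase gene Jak2 at -0.66, with 5.21 TPM in replicate 2 and 8.43 TPM in replicate 1. All 9 receptor substrates and adaptors were detected, around a median of 9.45 TPM. The highest was the adaptor gene Grb2 at 152 ± 5.03 TPM (SD, n = 2), and Grb10, an imprinted adaptor that inhibits both Igf1r and Insr, had 59.82 TPM in replicate 2 and 84.77 TPM in replicate 1. The substrate genes Irs1, Irs2 and Irs4 averaged 7.01, 5.24 and 1.64 TPM.

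Of 20 genes of PI3K, Akt, mTOR and Foxo, the route from the receptors to growth control, 19 were detected, and the list's median was 21.3 TPM. Rheb, the GTPase that activates mTOR, was highest at 217 ± 16.3 TPM (SD, n = 2), followed by the kinase gene Gsk3b at 106 ± 4.76 TPM and the PI3K subunit gene Pik3r2 at 97.8 ± 1.82 TPM. The kinase genes Akt2 and Akt1 averaged 57.0 ± 6.02 TPM and 49.4 ± 4.09 TPM. Foxo4 was the gene not detected, at 0.58 TPM in replicate 2 and 0.96 TPM in replicate 1. None of the 19 detected genes passed 1.5-fold under TMM, and Foxo4, on 46 counts in replicate 2 and 70 in replicate 1, was just past it at 1.501-fold higher in replicate 1, with overlapping intervals.

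Other ligands, binding proteins and proteases were sparser. Of the insulin genes and the orphan receptor gene Insrr, only Ins2, 11.8 kb from Igf2, was detected, at 2.84 TPM in replicate 2 and 2.58 TPM in replicate 1, on 26 counts in replicate 2 and 24 in replicate 1. Ins1 had 0 counts in both pools. Of 4 other binding proteins, Igfbpl1 had 16.90 TPM in replicate 2 and 22.95 TPM in replicate 1, and Igfbp6 averaged 3.46 ± 0.339 TPM. Igfbp1 and Igfals, which forms the large serum complex with Igfbp3 or Igfbp5, were not detected. Of 5 genes for proteases that cut binding proteins and their inhibitors, 3 were detected, led by the protease gene Htra1 at 20.8 ± 1.73 TPM (SD, n = 2). Pappa averaged 0.765 ± 0.0212 TPM and Pappa2 0.625 ± 0.0354 TPM, while Stc1 and Stc2, which encode inhibitors of these proteases, averaged 4.88 and 1.29 TPM. All 4 mannose 6-phosphate sorting genes, which share a trafficking route with Igf2r, were detected, with M6pr at 44.0 ± 0.863 TPM. All 4 genes of growth hormone input were detected, and the growth hormone receptor gene Ghr averaged 8.66 ± 0.559 TPM.

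**Figure D5:**
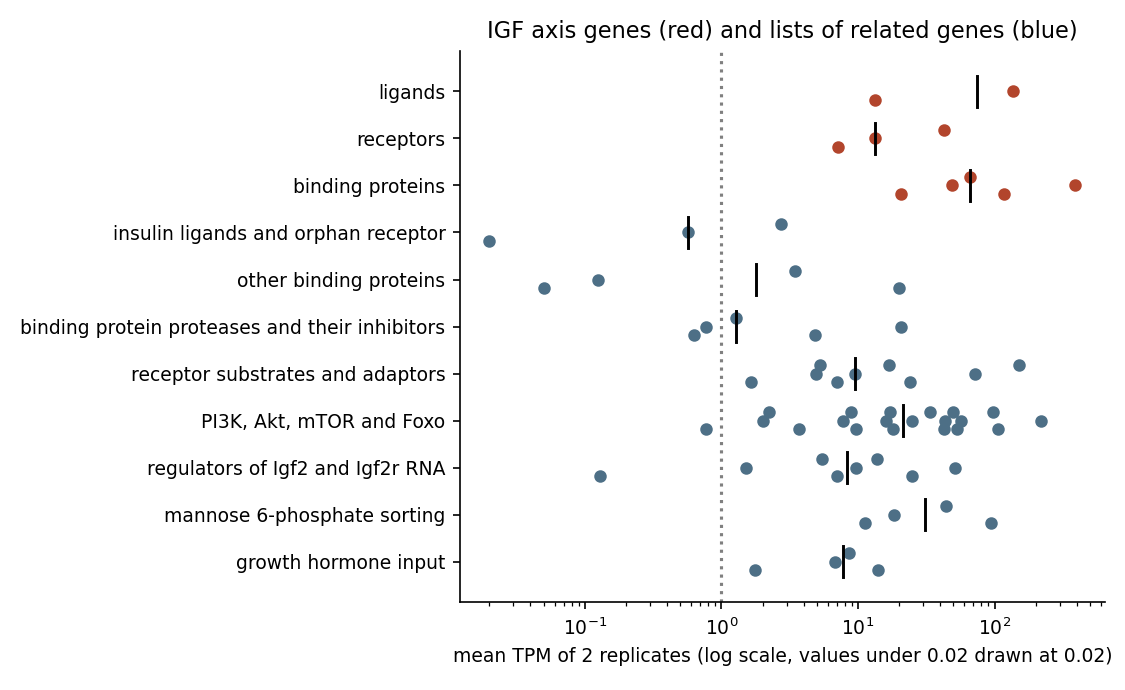
Mean TPM of the 2 replicates (log axis) for each IGF axis gene, in red, and each gene of the lists of related genes, in blue. Black bars are list medians and the dotted line is the detection limit of 1 TPM. The PI3K list spreads from 0.770 to 217 TPM, and the insulin list and the other binding proteins lie mostly to the left of the members.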

How the data were processed

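The authors quantified each replicate separately against GENCODE M4 and mm10, per the notes they deposited. The tool and the strand setting were not given in the sources used here. Genes and transcripts both have deposited expected counts, TPM, FPKM and interval bounds on TPM, which are scores here because their level is not stated, and each transcript has its percent of the gene's TPM, as the authors deposited them. TPM was scaled over all features, spike-ins included. GENCODE M21 (GRCm38) gave symbols, transcript types and positions, matched by identifier without version for 42462 of 43346 genes.

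Rounded expected counts were scaled by TMM factors (edgeR 4.0.16 in R 4.3.3), spike-ins left out, with a prior count of 0.5. Counting intervals of 95% are exact binomial. Detected means 1 TPM or more in both libraries. Gene pairs were called from the deposited intervals, and ratios between pools at 2-fold and 1.5-fold. For protein-coding transcripts alone, the deposited bounds were summed over the transcripts of a gene. With 2 replicates of 1 group there is no test over conditions. Whether the pools share animals or litters is not given, so their spread may be partly technical. The ratio step was tested on simulated data. Python 3.11.15, pandas 2.3.3 and SciPy 1.17.1 were used for the rest. DESeq2 1.42.0 gave alternative size factors. Named transcripts hold a mean of 10% or more of their gene, apart from Igf1-201, Igf1-203, Igf2-201, Igf2-205 and Insr-203, which were named after values were seen. The members, lists and rules were chosen with earlier results of these data known.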

Additional observations from a re-analysis of the deposited data

How the results depend on the processing

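For 54 results and 243 alternatives, 194 were labelled as the same, by a rule that differed with the kind of result. Levels and shares had to stay within the spread between replicates, and ratios of 2 genes on the same side of their limit. The ratio of a member between pools had to stay inside its counting interval, which covers counting error only. The median of those ratios was held to the spread over the 10 genes. Counts of genes or pairs had to stay within 1.5-fold of the main count. Part of the 194 was fixed in advance. With either replicate left out, a gene's level or its share in transcripts not annotated as coding always lies within the SD of the 2. FPKM also keeps the TPM ratios of genes within a library. The median level of the 10 genes, 45.8 TPM, was 27.5 in deposited FPKM and 34.3 TPM over protein-coding transcripts, and 43.4 to 48.2 TPM with either replicate left out. All 10 genes were detected under every alternative run. Called pairs numbered 43 to 44 of 45 with either replicate left out, a number that could not fall below the 42 called in both libraries. Over protein-coding transcripts the log2 ratio was -0.49 for Igfbp4 over Igfbp7, and -2.20, -1.57, -1.54 and -0.58 for Insr over Igfbp3, Igf1, Igf1r and Igf2r. These reversals follow from leaving out Insr-202 and Igfbp4-203. The count of members past 1.5-fold between pools was 1 and fell to 0 with spike-in totals, which shift all ratios by 0.45. Members with over 50% in transcripts not annotated as coding were 2 by TPM and 1 by expected counts. Of the 57 related genes, 49 were detected, and 52 at a minimum of 0.5 TPM and 36 at 5 TPM, limits added after seeing the data. No paired analysis was possible because the 2 libraries form 1 group. With at least 1172 counts for each member in each library, the limits are the 2 replicates, the transcript models and the unknown strand setting.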
